A study of Mus musculus with 3 samples.

Results

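Carbonic anhydrase 6, encoded by *Car6*, is the only carbonic anhydrase known to be secreted, and it reaches the tear film and saliva from serous acinar cells. The cells described here are 260 *Car6*-high cells among the 19592 cells kept from dissociated mouse lacrimal glands (LGs), or 1.33% of them. They were chosen on measured values: at least 5 unique molecular identifiers (UMIs) of *Car6* that stood at 5000 or more on the counts-per-million (CPM) scale, that is relative to the cell's total UMIs, at most 1 UMI of the duct genes *Fcgbp*, *Sftpd*, *F5* and *Ccl9* together, and 0 UMIs of *Ptprc*, *Pecam1* and *Col1a1*, which mark leukocytes, endothelium and fibroblasts. Kept cells had more than 500 UMIs, more than 200 genes and less than 15% of UMIs on mitochondrial genes. The levels of these 8 genes follow from that choice and are given as a description.

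The study profiled LGs of 2-month-old C57BL/6J mice with no genetic or drug treatment, by droplet single-cell RNA-seq on the 10x Genomics platform. It comprised 1 female library and 2 male libraries, and each library was a pool of the glands of 3 mice. Glands were digested with collagenase, dispase, DNase I and accutase, and dead cells were removed on a column. The female library was processed at another core facility and on another day than the male libraries, so sex, facility and day cannot be told apart, and female and male values are set side by side without a test.

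The acinar cells of the LG make most of the protein and much of the water of tears. Their products include secretoglobins, odorant-binding proteins, major urinary proteins and exocrine gland-secreted peptides, several of which differ between male and female mice. Water follows chloride and potassium that leave the acinar cell through channels opened by calcium. Ducts lined by cells with their own secretory genes, among them *Ltf* (lactoferrin), carry the fluid to the eye.

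Values of the 3 libraries are given throughout in the order female, male 1, male 2. In the libraries, 118, 146 and 105 kept cells reached the *Car6* limit. The duct genes removed 13, 48 and 32 of them and the leukocyte, endothelial and fibroblast genes 14, 1 and 1, which left 91, 97 and 72 *Car6*-high cells. They were 1.10, 1.74 and 1.26% of the kept cells of their library. No barcode of a *Car6*-high cell occurred in more than 1 library. Just inside the limit, the lowest *Car6* level was 5079, 5107 and 5220 CPM, and the nearest cells outside it had 4795, 4657 and 4975 CPM. Between 2500 and 5000 CPM lay 82, 21 and 9 cells, so the limit cut through a continuous range most of all in the female library.

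The *Car6*-high cells were compared with 3318 other tear-rich cells, which had at least 75% of their UMIs on 78 tear genes (secretoglobins, odorant-binding proteins, exocrine gland-secreted peptides, major urinary proteins, *Mucl2*, *Gm1553* and *Pip*), and with 689 duct-gene-high cells, which had at least 5 UMIs of *Fcgbp*, *Sftpd*, *F5* and *Ccl9* together. There were 336, 1116 and 1866 other tear-rich cells and 105, 315 and 269 duct-gene-high cells. The limits on duct, leukocyte, endothelial and fibroblast genes were not applied to the other tear-rich cells, of which 305, 1052 and 1735 met them. *Car6*-high cells held a median of 11382, 2309 and 2978 UMIs, less than the 46368, 17680.5 and 11507.5 of other tear-rich cells. Their median share of mitochondrial UMIs was 5.19, 4.43 and 3.62%, against 0.316, 0.926 and 0.496%.

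The female *Car6*-high cells fell into separate sets. In 39 of 91, the salivary-type transcript *Bpifa2* made up at least 20000 CPM, a limit chosen after its values were seen (lowest 28269, median 301133). In the other 52 its highest value was 13352 CPM and its median 1450. *Bpifa2* had 0 UMIs in every *Car6*-high cell of both male libraries. The 39 *Bpifa2*-rich cells carried 53.4% of the 371482 *Bpifa2* UMIs of the female library. *Bpifa2*, *Amy1* (salivary amylase) and *Smr3a* are known as products of rodent salivary glands, and the origin of these cells was not tested. All 11 female *Car6*-high cells that were marked as possible doublets were among these 39. Counts of called genes and the values that moved most are therefore also given without the 39 cells.

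The genes at the centre of the description lie as follows in the GENCODE annotation of GRCm38. *Car6* (ENSMUSG00000028972) spans chromosome 4 from 150187015 to 150201332 on the minus strand, and *Mup4* (ENSMUSG00000041333), also on the minus strand of chromosome 4, spans 59956804 to 59960710. *Dnase1* (ENSMUSG00000005980) lies on chromosome 16 from 4036942 to 4040024 and *Kit* (ENSMUSG00000005672) on chromosome 5 from 75574916 to 75656722, both on the plus strand. *Bpifa2* (ENSMUSG00000042459) spans chromosome 2 from 154008265 to 154016079 on the plus strand. UMIs were counted per gene, so the exons behind a value are not distinguished.

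*Car6* and *Mup4* varied together among the *Car6*-high cells that were not *Bpifa2*-rich, as described below, so the 250 bases before the RefSeq start of each are shown from the RefSeq promoter set of GRCm38.p6, 5′ to 3′ on the gene's strand. The GENCODE genes start further upstream, so that 197 of the 250 bases for *Car6* and 43 for *Mup4* lie inside the GENCODE gene. Capitals mark matches on either strand to 4 motifs: the SOX motif with the letters ACAAAG, the E-box motif with CAGCTG, the ETS motif with CCGGAA, and the TATA box with TATAAA.
Car6: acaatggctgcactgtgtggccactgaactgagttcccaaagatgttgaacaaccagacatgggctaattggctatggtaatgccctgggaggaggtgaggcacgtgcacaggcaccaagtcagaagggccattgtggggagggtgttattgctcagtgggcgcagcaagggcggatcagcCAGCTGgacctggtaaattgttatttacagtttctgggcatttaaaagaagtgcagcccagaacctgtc
Mup4: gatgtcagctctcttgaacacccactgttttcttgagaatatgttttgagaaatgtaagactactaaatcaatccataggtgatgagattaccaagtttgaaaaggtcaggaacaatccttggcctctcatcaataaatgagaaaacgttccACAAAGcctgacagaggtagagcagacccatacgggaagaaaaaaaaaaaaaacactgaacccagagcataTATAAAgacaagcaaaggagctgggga
The *Car6* window (chr4:150201136-150201385) held 1 E-box match, and the *Mup4* window (chr4:59960668-59960917) held 1 SOX match and 1 TATA match. Over 32851 promoter windows of this length, 16.5% held the SOX letters, 13% the E-box, 12.0% the ETS and 12.4% the TATA letters, so single matches are common. They are a description and do not show binding.

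The label of acinar cells was checked against markers. *Lpo*, the lactoperoxidase of acinar cells, stood at 539, 802 and 668 CPM in the *Car6*-high cells of the 3 libraries, at 269, 498 and 457 CPM in other tear-rich cells and at 234, 436 and 432 CPM in duct-gene-high cells. *Ltf*, the marker of *Ltf+* ducts, was at 5.10, 27.4 and 51.7 CPM, against 8708, 6795 and 6822 CPM in duct-gene-high cells. In CPM *Lpo* was thus above both kinds of comparison cell and *Ltf* far below the duct-gene-high cells, which were chosen on other genes of *Ltf+* ducts. The list of acinar genes as a whole was lower than in other tear-rich cells under the scaling used for the tests (13 of 16 genes called) and higher than in duct-gene-high cells (12 of 16). *Lpo* itself was among the genes called in both counts. Over all genes tested, 7.49% were called lower than in other tear-rich cells and 5.93% higher than in duct-gene-high cells. *Fgg*, another acinar gene, was lower in CPM too, at 13.1, 12.2 and 18.5 against 86.8, 99.6 and 92.2 in other tear-rich cells.

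Of 7 markers of multilayered ducts, 6, 3 and 3 had a UMI in *Car6*-high cells, and their summed level was 24.1, 27.4 and 14.8 CPM, against 4.72, 2.60 and 5.70 CPM in other tear-rich cells and 615, 197 and 245 CPM in duct-gene-high cells. The list of 6 markers of *Ltf+* ducts summed to 25.5, 177 and 185 CPM in *Car6*-high cells, 21.7, 31.8 and 65.3 CPM in other tear-rich cells and 11547, 8385 and 8396 CPM in duct-gene-high cells. *Krt19* was at 0 in all 3 libraries and *Wfdc2* was at 0 in both male libraries. All 33 female UMIs of the multilayered duct list lay in the *Bpifa2*-rich cells, against 4 of the 35 of the *Ltf+* duct list. The leukocyte list of 10 markers summed to 32.8, 21.3 and 44.3 CPM, and the endothelial list of 7 to 3.65, 0 and 0 CPM. The fibroblast list of 7 summed to 13.1, 54.9 and 22.1 CPM and the myoepithelial list of 7 to 11.7, 48.8 and 11.1 CPM. In other tear-rich cells the leukocyte list summed to 13.9, 16.2 and 48.5 CPM, the endothelial list to 3.54, 1.72 and 2.71 CPM, the fibroblast list to 14.6, 10.6 and 29.3 CPM and the myoepithelial list to 4.89, 4.22 and 12.4 CPM. The part these small sums play in the results was not tested.

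Free RNA was measured in barcodes with more than 500 UMIs that were not called as cells. *Car6* stood at 1558, 763 and 549 CPM there and at 38442, 28808 and 32138 CPM in the *Car6*-high cells. In other tear-rich cells *Car6* was at 91.8, 75.5 and 62.4 CPM, below its level in free RNA. *Scgb2b2*, a secretoglobin, stood in *Car6*-high cells at 30.4, 45.1 and 37.0% of its level in free RNA. The female value was 46.1% without the *Bpifa2*-rich cells. If all of it were free RNA, these would be the shares of free RNA in the cells. The same ratio was 113, 115 and 118% in other tear-rich cells. The ratio in *Car6*-high cells depended on the gene: it was 18.6, 35.2 and 29.2% for *Gm1553* and 22.9, 64.8 and 62.9% for *Mucl2*. In the female *Car6*-high cells that were not *Bpifa2*-rich, *Bpifa2* was at 859 CPM, against 9211 CPM in free RNA. How much of the secretoglobin signal of the *Car6*-high cells was their own was not tested.

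Tear genes, which chose the comparison cells and are described without a test, differed by family. In *Car6*-high cells secretoglobins took 11.2 ± 5.05% of UMIs (mean ± SD over the 3 libraries, as for the shares that follow), against 34.8 ± 10.6% in other tear-rich cells. Odorant-binding protein genes took 23.5 ± 2.84% against 14.7 ± 6.17%, and major urinary protein genes 5.52 ± 3.50% against 0.909 ± 0.774%. *Mucl2* took 7.61 ± 2.05% against 14.8 ± 5.86%, *Gm1553* took 4.07 ± 2.35% against 12.6 ± 4.02%, and *Pip* took 1.88 ± 0.854% against 1.95 ± 0.177%. The *Car6*-high cells thus had a larger share of major urinary protein transcripts and a smaller share of secretoglobins in all 3 libraries. The share of odorant-binding proteins was larger in the male libraries, at 23.6 and 26.2% against 11.3 and 10.98%, but not in the female library, at 20.6 against 21.8%. There it was 34.4% without the *Bpifa2*-rich cells. Only 1, 5 and 2 of them reached 75% of UMIs on tear genes.

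*Obp1a*, an odorant-binding protein gene of the lipocalin family, was their most abundant transcript of this kind, at 191488, 235718 and 262196 CPM against 147720, 113172 and 109713 CPM in other tear-rich cells. *Gm5938*, the neighbouring X-linked gene, stood at 87126, 89217 and 98482 CPM against 74308, 44726 and 42122 CPM. *Mup4*, a major urinary protein gene, stood at 14996, 70651 and 79155 CPM against 189, 14241 and 12831 CPM. All 3 were above the comparison cells in each library, and *Mup4* was lower in the female library in both kinds of cell. In female *Car6*-high cells it was at 25926 CPM without the *Bpifa2*-rich cells. Near-identical copies of odorant-binding and major urinary protein genes share reads, so the split between copies is uncertain.

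**Figure D1:**
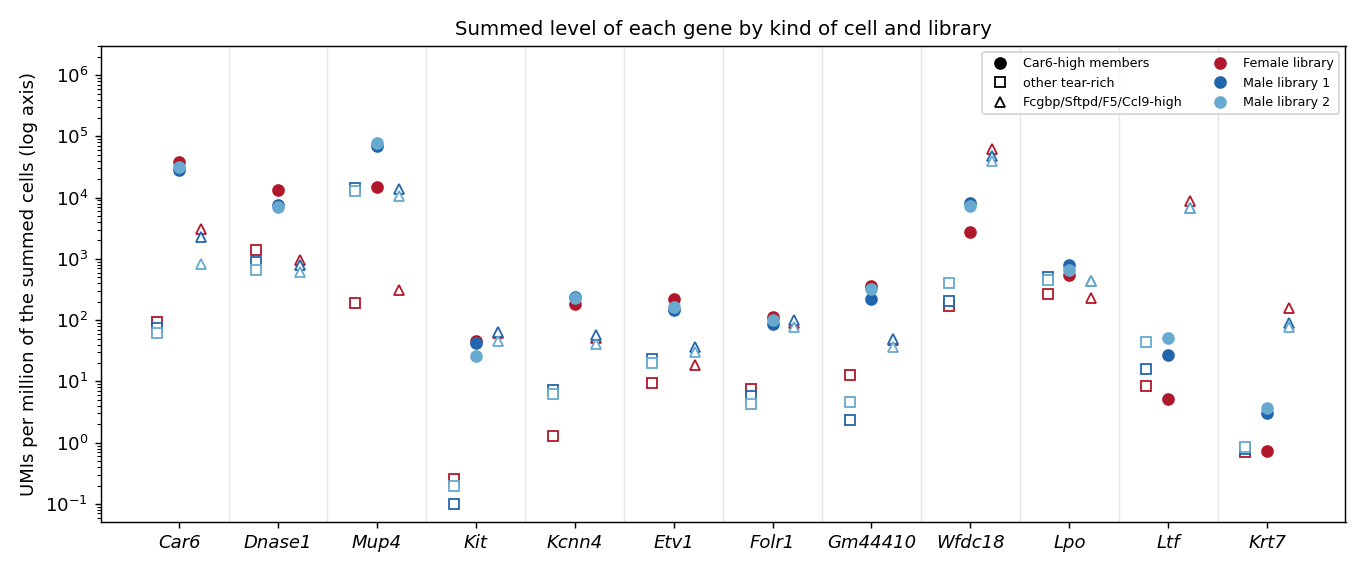
Level of marker and product genes in CPM of the summed cells on a log axis, with filled circles for *Car6*-high cells, squares for other tear-rich cells, triangles for *Fcgbp*/*Sftpd*/*F5*/*Ccl9*-high (duct-gene-high) cells and one colour for each of the 3 libraries. *Kit* stands at 25.8 to 45.9 in *Car6*-high cells and at 0.101 to 0.253 in other tear-rich cells.

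Summed UMIs of each kind of cell were compared within libraries with edgeR's quasi-likelihood test and Benjamini-Hochberg adjustment, from which all log2 fold changes and adjusted p-values below come. The p-values measure only the spread between these 3 libraries. Against other tear-rich cells, 8452 genes were tested. Of these 293 (3.47%) were called higher in *Car6*-high cells at an adjusted p under 0.05, and 633 (7.49%) were called lower. Without the *Bpifa2*-rich cells the shares were 2.87% higher and 7.75% lower. These counts include genes of the rule and tear genes that passed the count filter, whose direction is tied to the choice of cells. Fold changes are relative to TMM scaling, under which the median gene stood at −0.11. Scaled by total UMIs, the median gene stood at 1.204 and the split became 3454 higher and 69 lower, and scaled by UMIs off the tear genes it stood at −0.06, with 244 higher and 258 lower. Restricting the comparison to tear-rich cells in the depth range of the *Car6*-high cells left 96 higher and 87 lower. With the same exclusions in the comparison cells, 299 were higher and 648 lower.

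Leaving out the libraries in turn left 191, 167 and 103 genes higher and 522, 262 and 125 lower. When the *Car6*-high cells were also held to at least 75% of UMIs on tear genes, 8 cells remained, with 1 gene higher and 186 lower. In these 8 cells the log2 fold change was −1.11 for *Dnase1*, −1.52 for *Etv1* and −1.03 for *Wfdc18*, opposite in sign to the values below. The differences described next are those of *Car6*-high cells that mostly had a smaller share of tear transcripts than the comparison cells.

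Acinar cells drive tear fluid with ion channels, carriers and pumps. Of 18 tested genes of ion and water transport, 8 were called higher, 0 lower and 10 were not called, with a median log2 fold change of 1.04. *Kcnn4*, which encodes a calcium-activated potassium channel, was at 181, 241 and 229 CPM in *Car6*-high cells and at 1.31, 7.26 and 6.23 CPM in other tear-rich cells. The log2 fold change was 4.32 (SE 0.239, adjusted p = 3.64e-33). *Lrrc26*, an auxiliary subunit of large-conductance potassium channels, was at 162, 180 and 185 CPM against 48.1, 45.7 and 38.5 CPM, a log2 fold change of 0.61 (adjusted p = 0.0191). *Ano1*, a calcium-activated chloride channel, had a log2 fold change of 2.52.

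*Slc12a2*, a carrier that loads chloride into cells, was at 153, 6.095 and 11.1 CPM. Duct-gene-high cells had 273, 192 and 175 CPM. Against other tear-rich cells, with 0.801, 0.743 and 1.70 CPM, the log2 fold change of *Slc12a2* was 4.15. Without the *Bpifa2*-rich cells its log2 fold change was 1.67 and the call was lost (adjusted p = 0.0888). *Atp1b1*, a sodium pump subunit, likewise went from 3.27 to 1.23 (adjusted p = 0.333), and *Itpr2* was lost too, which left 5 of the 8 genes. *Aqp5*, the apical water channel, was at 152, 277 and 295 CPM against 67.3, 82.9 and 71.5 CPM. Higher in CPM in each library, it was not called on the TMM scale (log2 fold change 0.26, adjusted p = 0.457).

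Among carbonic anhydrases other than *Car6*, 3 could be tested. *Car12*, a membrane-bound form, was at 16.8, 12.2 and 3.69 CPM in *Car6*-high cells, from 23, 4 and 1 UMIs. Other tear-rich cells had 0.421, 0.270 and 0.559 CPM (log2 fold change 3.54, adjusted p = 6.85e-07). *Car2*, a cytosolic form, was at 13.9, 3.05 and 0 CPM, from 19, 1 and 0 UMIs, against 0.337, 0.0338 and 0.0838 CPM. Its log2 fold change was 3.98 (adjusted p = 8.40e-06), but the difference in male library 2 was −0.71. *Car2* could not be tested without the *Bpifa2*-rich cells.

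Of 13 tested stem, progenitor and lineage regulators, 6 were called higher and 0 lower, with a median log2 fold change of 1.47. *Kit*, the receptor of stem cell factor, was at 45.9, 42.7 and 25.8 CPM against 0.253, 0.101 and 0.196 CPM in other tear-rich cells and 1.07, 0.483 and 0.445 CPM in free RNA. Its log2 fold change of 6.27 (SE 0.473, adjusted p = 8.16e-23) was the largest positive one among the genes ranked. *Sox10*, a transcription factor of LG acinar development, was at 9.48, 15.2 and 3.69 CPM against 0.126, 0.101 and 0.112 CPM (log2 fold change 4.93, adjusted p = 1.23e-07). The value of male library 2 rests on 1 UMI.

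*Barx2*, a homeobox factor of gland morphogenesis, was at 39.4, 33.5 and 51.7 CPM against 0.632, 0.574 and 0.475 CPM (4.80, adjusted p = 5.65e-20). *Etv1*, an ETS family factor, was at 219, 146 and 166 CPM against 9.48, 23.3 and 20.2 CPM (2.08, adjusted p = 9.74e-14). *Foxc1* (0.88, adjusted p = 0.0108) and *Runx1* (1.69, adjusted p = 7.72e-04), other regulators of gland epithelium, had smaller differences. Without the *Bpifa2*-rich cells these 6 calls held and *Pax6*, the eye-field regulator kept in adult LG epithelium, joined them.

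Of 15 tested genes that the study lists for its *Car6*-high acinar cluster, 13 were called higher and 0 lower, with a median log2 fold change of 2.33. The study chose that list on these libraries, so the count is not independent evidence. It includes *Kcnn4*, *Lrrc26*, *Kit*, *Sox10* and *Etv1*, so the counts for the transport and progenitor lists above are not independent of it. *Dnase1*, the secreted endonuclease, was at 13590, 7527 and 6965 CPM against 1389, 893 and 661 CPM in other tear-rich cells and 1693, 933 and 783 CPM in free RNA (log2 fold change 1.87, SE 0.233, adjusted p = 6.24e-11). *Gm44410*, a long noncoding RNA, was at 368, 226 and 321 CPM against 12.6, 2.36 and 4.67 CPM (4.41, adjusted p = 2.82e-37). *Wfdc18*, of the whey acidic protein family, was at 2728, 8338 and 7401 CPM against 171, 205 and 409 CPM (3.12, adjusted p = 3.25e-22).

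*Folr1*, the folate receptor, was at 113, 85.3 and 99.7 CPM against 7.63, 5.84 and 4.25 CPM (2.71, adjusted p = 1.98e-19). *Ggh*, which trims polyglutamate from folates, was at 3388, 67.05 and 73.8 CPM against 8.64, 7.63 and 6.45 CPM. Its log2 fold change fell from 3.72 to 2.01 without the *Bpifa2*-rich cells, in which *Ggh* stood at 7893 CPM. *Tcn2*, the carrier of cobalamin in plasma, had a log2 fold change of 1.06 (adjusted p = 1.07e-04), and 0.55 without those cells (adjusted p = 0.0401). These 3 were the called genes among 9 tested genes of folate, cobalamin and retinoid handling, and none of the 9 was called lower. All 3 are on the study's own list, so this count is not independent evidence either.

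Among the genes outside these lists with the largest positive differences were *Atp2a3* (5.69, and 4.28 without the *Bpifa2*-rich cells), a calcium pump of the endoplasmic reticulum, *Tmigd1* (5.57), an adhesion molecule, *Mgat4a* (5.32), a glycosyltransferase of the Golgi, *Spns2* (4.98), the sphingosine-1-phosphate exporter, and *Adgrg6* (4.66), an adhesion receptor. The log2 fold change of *Tmigd1* was 6.17 without the *Bpifa2*-rich cells, and that of *4833423E24Rik*, a gene with no role stated here, was 4.06. *Mgat4a* was at 59.1, 42.7 and 81.2 CPM against 0.759, 0.405 and 0.559 CPM. *Paqr4* (4.82), *Ckmt1* (4.67) and *4833423E24Rik* (4.67) completed that set with *Kit* and *Barx2*. Several of these genes had few UMIs in the male *Car6*-high cells. There were 3 and 2 for *Atp2a3*, 2 and 6 for *Tmigd1*, 6 and 3 for *Spns2* and 3 and 7 for *4833423E24Rik*, against 14 and 22 for *Mgat4a*. The 10 genes with the largest negative differences all had 0 UMIs in the *Car6*-high cells. Only the *Car6*-high cells were held to the limits on duct, leukocyte, endothelial and fibroblast genes, which can lower other transcripts of such cells. The floor of 3 UMIs over all *Car6*-high cells bounds the difference to at least 3.89-fold lower for *Kcnip3*, a calcium-binding protein, and to at least 1.77-fold lower for *Upk1a*, a uroplakin. For *Srgn*, *Adam28*, *Hapln4*, *Pacsin3*, *Tmem39b*, *Frmd8os* and *Proc* the bound was between 1.13 and 1.45, and *Il1rl2* was under the floor in both kinds of cell.

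General acinar genes were lower in *Car6*-high cells on the TMM scale. Of 16 tested, 13 were called lower (12 without the *Bpifa2*-rich cells) and 0 higher, with a median log2 fold change of −1.20. *Fgg*, the fibrinogen gamma chain, was at 13.1, 12.2 and 18.5 CPM against 86.8, 99.6 and 92.2 CPM (−4.02, SE 0.259, adjusted p = 9.62e-28). *Hp*, haptoglobin, was at 118, 183 and 99.7 CPM against 506, 305 and 235 CPM (−2.76, adjusted p = 1.38e-22). Both were lower in CPM and on the TMM scale.

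*Lpo* had a log2 fold change of −0.63 (adjusted p = 0.0190) under TMM and 0.75 under total UMIs. *Bhlha15*, a transcription factor of the secretory cell, went from −0.83 to 0.53, and *Qsox1*, a sulfhydryl oxidase of the secretory pathway, from −0.70 to 0.68. *Lcn11* went from −1.20 to 0.20 and *Sval2* from −1.19 to 0.19. The direction of these 5 genes therefore depends on the scaling. *Qsox1* also lost its call without the *Bpifa2*-rich cells (adjusted p = 0.0510).

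Secreted proteins are moved into the endoplasmic reticulum and folded there. Of 30 tested genes of this machinery, 16 were called lower (17 without the *Bpifa2*-rich cells), 0 higher and 14 were not called (median −0.74). *Sec61b*, a subunit of the translocon, was at 268, 274 and 317 CPM against 257, 250 and 268 CPM (−1.23, adjusted p = 6.06e-08), and *Hspa5*, the chaperone BiP, had a log2 fold change of −0.59 (adjusted p = 0.0211). In CPM *Sec61b* was thus slightly higher in all 3 libraries, and under total UMIs the log2 fold changes were 0.14 for *Sec61b* and 0.79 for *Hspa5*.

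Mitochondrially encoded genes were higher: 13 of 13 were called, with a median of 0.99, and 12 without the *Bpifa2*-rich cells. *mt-Co3*, a subunit of cytochrome oxidase, was at 7364, 9115 and 7467 CPM against 1265, 1659 and 1227 CPM (1.15, adjusted p = 3.92e-05) and at 550, 215 and 282 CPM in free RNA. *Malat1*, a nuclear RNA, was at 5531, 9243 and 5920 CPM against 635, 887 and 511 CPM (log2 fold change 1.96, adjusted p = 2.14e-12) and at 220, 143 and 138 CPM in free RNA. The free RNA value depends on the barcodes taken: in uncalled female barcodes with 10 to 100 UMIs, *Malat1* was at 3618 CPM. Of 12 nuclear RNA and splicing genes, 4 were called higher and 1 lower, and 2 higher without the *Bpifa2*-rich cells. Of 18 dissociation and stress genes, 5 were called higher (7 without the *Bpifa2*-rich cells) and 1 lower (median 0.36). *Jun* rose by 1.02 and *Ier3* by 2.25 on the log2 scale, and the heat shock gene *Hspa1a* by 0.91. In the female library *Jun* was at 64.2 CPM and in the male libraries at 704 and 465 CPM.

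General epithelial genes were called higher in 5 of 13 tests (4 without the *Bpifa2*-rich cells) and lower in 0 (median 0.58). *Epcam*, the epithelial adhesion molecule, was at 111, 183 and 214 CPM against 27.7, 30.3 and 24.7 CPM (1.17, adjusted p = 8.99e-07). *Krt18*, a keratin of simple epithelia, was not called (0.05, adjusted p = 0.940). Of 13 antimicrobial and mucosal defence genes, 6 were called higher and 4 lower. *Pglyrp1*, a peptidoglycan recognition protein, was at 10.2, 91.4 and 84.9 CPM against 0.969, 1.62 and 3.02 CPM (3.40, adjusted p = 1.99e-15), and *Pigr*, the carrier of secreted immunoglobulin A, was lower (−1.47, adjusted p = 2.43e-07, and −2.20 without the *Bpifa2*-rich cells).

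**Figure D2:**
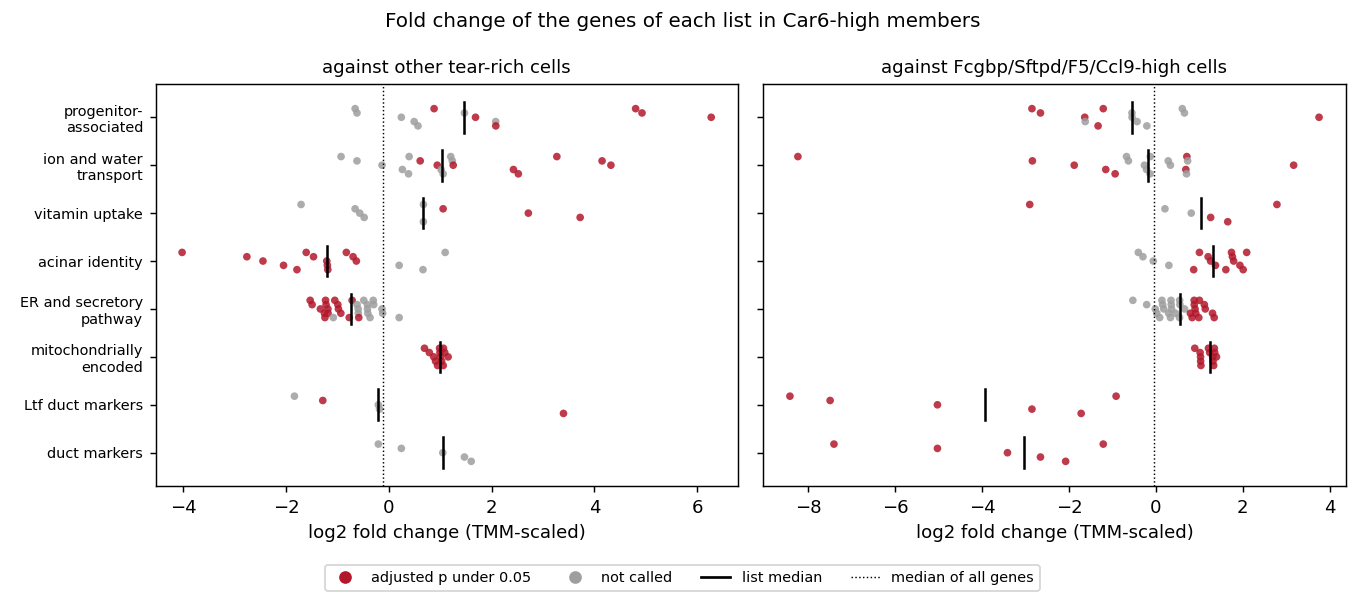
Log2 fold change of each tested gene of 8 lists in *Car6*-high cells, against other tear-rich cells (left) and against *Fcgbp*/*Sftpd*/*F5*/*Ccl9*-high cells (right); red points passed an adjusted p under 0.05, bars mark list medians and dotted lines the median of all genes tested (−0.11 and −0.05). The acinar list is below 0 on the left (median −1.20) and above 0 on the right (median 1.32).

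Against duct-gene-high cells, 6038 genes were tested, of which 358 (5.93%) were called higher in *Car6*-high cells and 445 (7.37%) lower. Without the *Bpifa2*-rich cells the shares were 5.31% and 6.07%. Genes of the rule and tear genes that passed the count filter are again included in these counts. The median log2 fold change was −0.05 under TMM and −1.21 under total UMIs, where 51 genes were higher and 3179 lower. With UMIs off the tear genes it was −1.06, with 33 higher and 989 lower. The median share of UMIs on tear genes was 15.8, 37.4 and 36.9% in duct-gene-high cells. Leaving out these libraries in turn left 199, 273 and 251 genes higher and 191, 347 and 299 lower.

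The acinar list was higher than in duct-gene-high cells, with 12 of 16 tested genes called and a median of 1.32. Without the *Bpifa2*-rich cells 8 calls held. *Lpo* had a log2 fold change of 1.94 (adjusted p = 2.03e-11), *Lcn11*, a lipocalin, of 1.74 and *Bhlha15* of 1.61. Of the 15 tested genes of the study's own list, chosen on these libraries and so no independent evidence, 11 were higher and 2 (*Krt18* and *Wfdc18*) lower. The endoplasmic reticulum list had 12 of 30 genes higher (16 without the *Bpifa2*-rich cells) and 0 lower (median 0.55), among them *Hspa5* (0.88, adjusted p = 0.00108), which fell to −0.15 under total UMIs. The *Car6*-high cells thus stood below other tear-rich cells and above duct-gene-high cells for both lists under TMM.

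*Dnase1* was at 970, 799 and 619 CPM in duct-gene-high cells, a log2 fold change of 4.53 (SE 0.362, adjusted p = 2.21e-26). *Kcnn4* was at 50.5, 56.5 and 40.7 CPM there (3.17, adjusted p = 5.91e-31), *Etv1* at 18.8, 36.2 and 29.8 CPM (3.76, adjusted p = 1.35e-33) and *Gm44410* at 47.5, 49.5 and 36.6 CPM (3.82). These 4 genes were therefore higher in *Car6*-high cells than in both kinds of comparison cell. *A630073D07Rik*, a gene with no role stated here, was at 140, 48.8 and 29.5 CPM against 5.94, 2.54 and 0.678 CPM (5.81, adjusted p = 3.92e-40).

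*Kit* was also found in duct-gene-high cells, at 62.3, 63.5 and 46.1 CPM. Its log2 fold change was 0.61 (SE 0.256) and was not called (adjusted p = 0.106). Without the *Bpifa2*-rich cells it was 0.97 and called (adjusted p = 0.0198), and under total UMIs it was −0.57. *Sox10* was not called either (0.66, adjusted p = 0.408, and −0.54 under total UMIs). Of 13 tested progenitor and lineage regulators, 1 was higher (*Etv1*) and 5 were lower (*Sox9*, *Runx1*, *Aldh1a1*, *Krt14* and *Krt5*), and 3 of these 5 held without the *Bpifa2*-rich cells.

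Of the 18 tested transport genes, *Kcnn4*, *Lrrc26* (0.71, adjusted p = 0.0102) and *Aqp5* (0.69, adjusted p = 0.0163) were higher, and the genes called lower included *Clic6*, *Slc12a2*, *Atp1b1* and *Atp1b3*. *Lrrc26* and *Aqp5* fell to −0.34 under total UMIs and to −0.14 with UMIs off the tear genes. *Clic6*, a chloride channel protein, had 0 UMIs in *Car6*-high cells and was at least 23.3-fold lower than in duct-gene-high cells.

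The 6 tested markers of *Ltf+* ducts were all lower, with a median of −3.94, and 5 of them without the *Bpifa2*-rich cells. *Ltf* had a log2 fold change of −7.50 (SE 0.408, adjusted p = 1.22e-46). *Dmbt1*, a mucosal scavenger receptor, was at 1.46, 0 and 7.38 CPM against 2383, 1008 and 1002 CPM (−8.43, adjusted p = 3.12e-48), and *Krt7*, a duct keratin, at 0.729, 3.05 and 3.69 CPM against 155, 91.4 and 78.7 CPM (−5.03). *Wfdc18* was also lower (−2.11, adjusted p = 6.44e-07), at 61846, 47140 and 39805 CPM in duct-gene-high cells, while higher than in other tear-rich cells. The list holds none of the duct genes that chose the cells. The study, however, describes *Ltf*, *Dmbt1* and *Pglyrp1* as markers of the same cluster as those duct genes. Both kinds of cell were chosen on the duct genes in opposite directions, so these lower values are not independent of the choice.

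Among the other genes with 0 UMIs in *Car6*-high cells, *Fxyd2*, a regulator of the sodium pump, was at least 70.7-fold lower. *Enpep*, an aminopeptidase, was at least 60.8-fold lower and *Alox12*, a lipoxygenase, at least 30.1-fold lower. *Ramp1*, a receptor accessory protein, *Tac1*, the precursor of substance P, *Cd14*, *Cadm1* and *Mgat3* had bounds from 17.6-fold to 28.0-fold.

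A *Kit* UMI was found in 29 of 91, 13 of 97 and 7 of 72 *Car6*-high cells. These shares are 31.9% (95% exact Clopper-Pearson interval 22.5 to 42.5), 13.4% (7.33 to 21.8) and 9.72% (4.00 to 19.0), and the intervals cover counting error only. Other tear-rich cells had 1.19, 0.269 and 0.375%, at higher depth, and duct-gene-high cells 52.4, 24.8 and 21.2%. In cells with at least 3 *Pecam1* UMIs, taken as endothelial cells that should lack *Kit* or hold little, the share was 2.96% of 270, 0 of 25 and 1 of 8, at median depths of 3564, 1891 and 1209 UMIs. A background cannot be read from so few cells in the second male library.

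Depth differed between libraries, so expected shares were computed with cells thinned to 1000 UMIs, leaving out shallower cells (0, 4 and 3 duct-gene-high cells and no *Car6*-high or other tear-rich cell). They were 5.95, 5.47 and 3.43% of *Car6*-high cells, 0.0126, 0.00533 and 0.0493% of other tear-rich cells and 9.90, 8.99 and 8.12% of duct-gene-high cells. At equal depth the female share was thus close to that of male library 1. The female value was 8.94% without the *Bpifa2*-rich cells (44.2% unthinned) and 1.96% in them. Cells with and without a *Kit* UMI had a median *Car6* level of 51773 and 17736 CPM in the female library, 23758 and 20165 in male library 1 and 25624 and 25903 in male library 2. With the *Car6* limit lowered to 2500 CPM, a choice made after seeing the data, the unthinned shares were 17.9% of 173, 12.7% of 118 and 8.64% of 81 cells. *Kit* and *Sox10* UMIs were found together in 4, 2 and 0 cells.

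**Figure D3:**
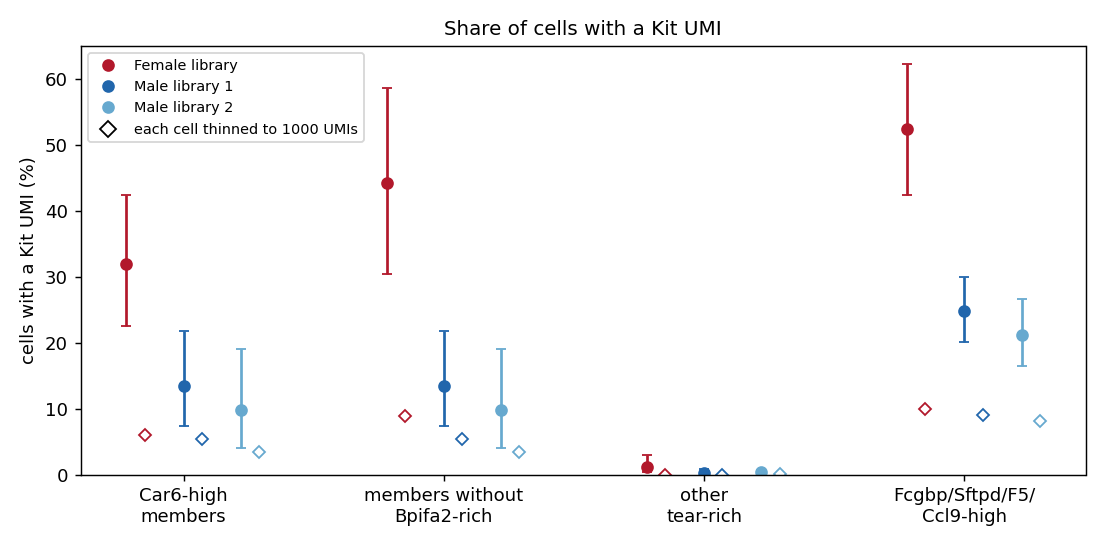
Share of cells with a *Kit* UMI in each library and kind of cell, as counted with 95% exact intervals and as computed for thinning of each cell to 1000 UMIs. *Car6*-high cells stand at 9.72 to 31.9% as counted and at 3.43 to 5.95% after thinning.

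Among the *Car6*-high cells, *Car6* ranged from 5079 to 110964 CPM in the female library, from 5107 to 72315 in male library 1 and from 5220 to 72867 in male library 2, with medians of 21512, 20876 and 25764. Its Spearman correlation with *Mup4* was 0.66 over 91 cells, 0.73 over 97 and 0.66 over 72. Among the female cells it was 0.05 over the 39 *Bpifa2*-rich cells and 0.70 over the other 52. With *Dnase1* it was 0.07, 0.52 and 0.42, and it rose to 0.57 over the 52 female cells that were not *Bpifa2*-rich. With *Scgb2b2* it was −0.39, −0.70 and −0.54. Outside the *Bpifa2*-rich set, cells richer in *Car6* were thus richer in *Mup4*, and in all 3 libraries they were poorer in the secretoglobin. Such correlations describe cells of 1 library that share depth and a fixed sum of UMIs.

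**Figure D4:**
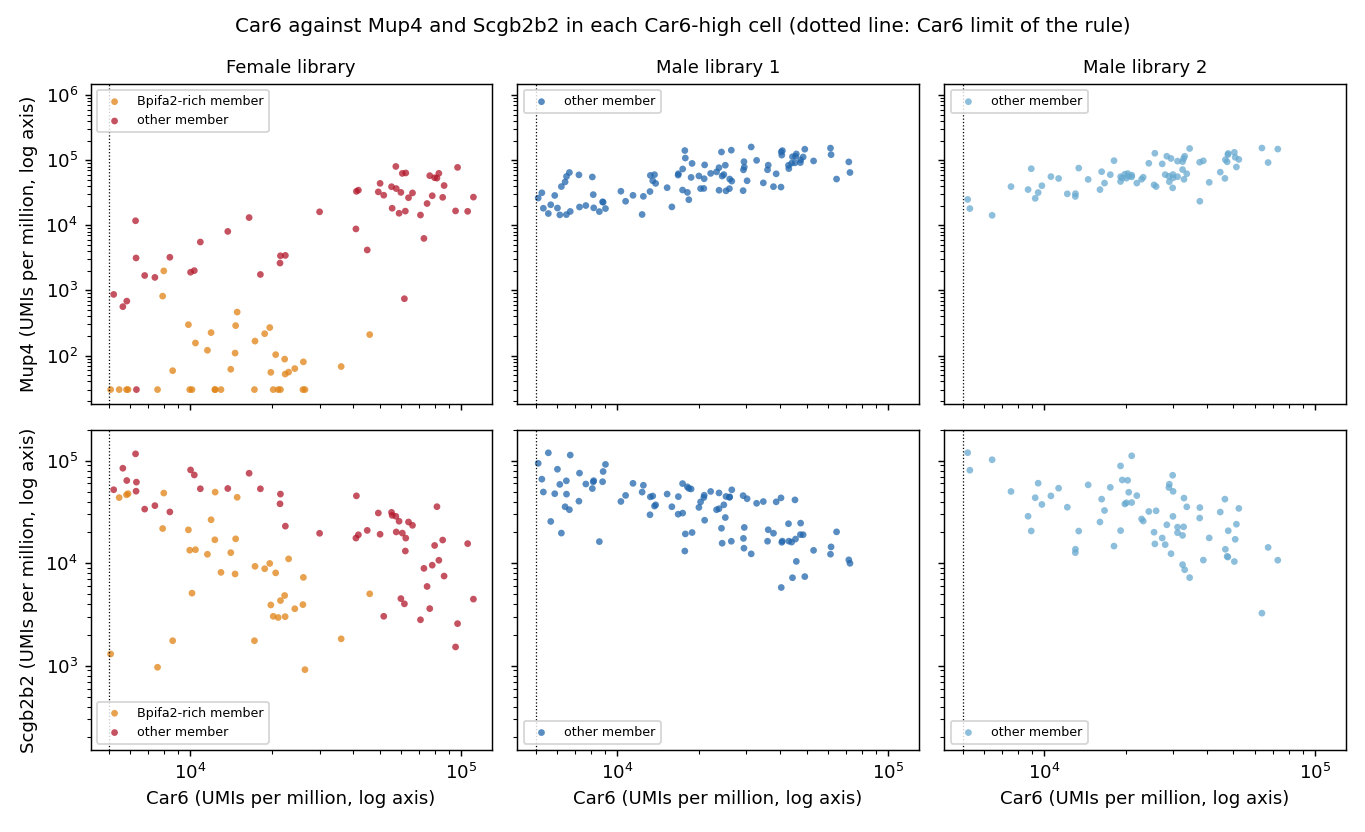
*Car6* level of each *Car6*-high cell (horizontal, CPM, log axis) against its *Mup4* (top) and *Scgb2b2* level (bottom, CPM, log axes) in the 3 libraries, with the *Bpifa2*-rich cells in orange, *Mup4* under 30 drawn at 30 and the *Car6* limit as a dotted line. The Spearman correlation of *Car6* with *Mup4* is 0.66, 0.73 and 0.66.

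The 39 *Bpifa2*-rich female cells stood apart from the other 52 in many products. They held a median of 11903 against 11093 UMIs, 6.72 against 2.57% of UMIs on mitochondrial genes, 12.99 against 55.3% on tear genes and 14702 against 53543 CPM of *Car6*. *Amy1* stood at 82109 against 107 CPM, *Smr3a* at 148886 against 428 CPM, *Cst10*, a cystatin, at 9033 against 20.2 CPM and *Prb1*, a proline-rich protein gene, at 283 against 0 CPM. *Etv1* (418 against 73.2 CPM) and *Dnase1* (20698 against 8387 CPM) were higher in them too.

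*Mup4* was at 65.6 against 25926 CPM, *Obp1a* at 11659 against 323127 CPM and *Lcn11* at 179 against 15051 CPM. *Mup4* was under 1000 CPM in 38 of the 39 cells and in 5 of the 52. *Gm44410* was at 6.90 against 633 CPM, *Wfdc18* at 96.6 against 4654 CPM and *Kit* at 15.5 against 68.2 CPM. *Dnase1* was thus abundant in both sets of female cells, while *Mup4* was low in the *Bpifa2*-rich cells. A further 32 kept female cells reached the *Bpifa2* limit without being *Car6*-high, of which 26 were under the *Car6* limit and 14 held a gene that excludes a cell. Of 5 tested genes that the study lists for a female subset of its *Car6*-high cluster, 5 were higher than in other tear-rich cells with these 39 cells (median log2 fold change 7.94) and 4 without them (median 0.93). The study chose that list on these libraries, so these counts are not independent evidence. *Bpifa2*, which set the 39 cells apart, and *BC037156* had 0 UMIs over all called barcodes of both male libraries. Their calls therefore rest on the female library. Without the 39 cells, *Bpifa2* was at 859 CPM and *Amy1* at 107 CPM in female *Car6*-high cells, against 9211 and 1256 CPM in female free RNA. Over all called female barcodes, *Amy1* had 83576 UMIs, against 39 and 25 in the male libraries, and *Smr3a* had 167761 against 1 and 0.

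**Figure D5:**
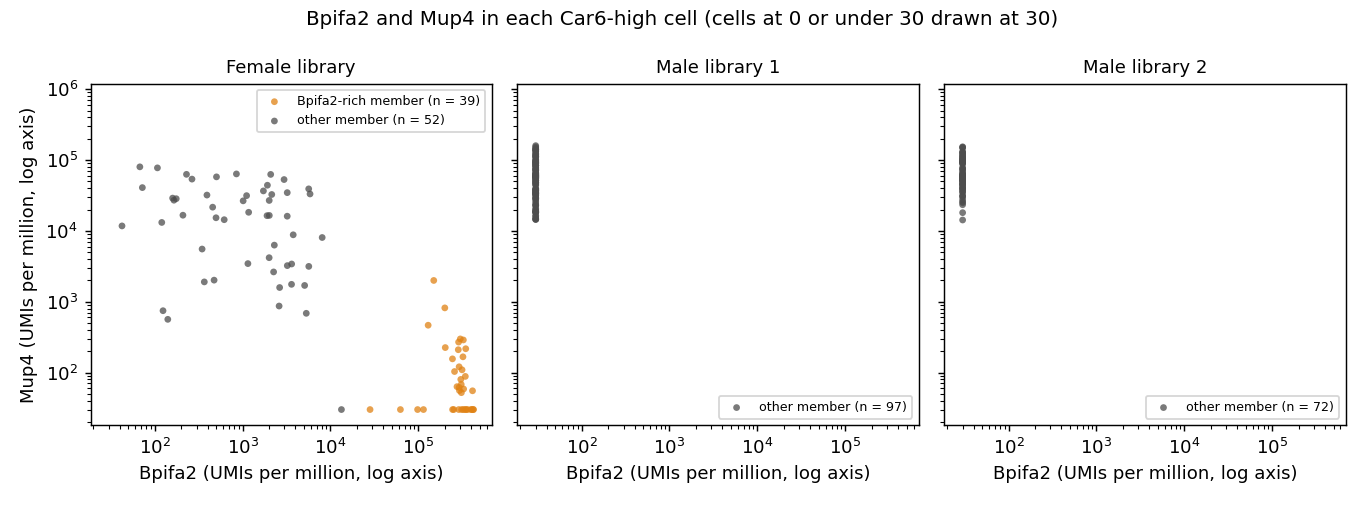
*Bpifa2* against *Mup4* in each *Car6*-high cell, in CPM on log axes, with cells under 30 drawn at 30. The 39 *Bpifa2*-rich female cells stand apart from the other 52, and the 97 and 72 male cells have no *Bpifa2* and a high *Mup4* level.

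With the *Bpifa2*-rich cells set aside, the female cells still differed from the male cells in several products. *Lcn11* was at 15051 CPM in these 52 cells and at 2017 and 2104 CPM in male *Car6*-high cells, and at 2409, 3427 and 2754 CPM in other tear-rich cells. *2310057J18Rik* was at 49.3 CPM against 11413 and 15303 CPM, and in other tear-rich cells at 11.7, 2606 and 2877 CPM. *Wfdc12*, a whey acidic protein gene, was at 31.6 CPM against 1877 and 1310 CPM, and at 125, 5048 and 3780 CPM in other tear-rich cells. The female library was thus also low in *2310057J18Rik* and *Wfdc12* outside the *Car6*-high cells, whereas the high female *Lcn11* was seen in the *Car6*-high cells. *Bglap3*, an osteocalcin-related gene, was at 1092 CPM against 2670 and 2233 CPM. With 1 female library these values carry no test.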

How the data were processed

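The authors processed the reads and deposited UMI counts per gene and barcode (32285 genes), with Cell Ranger 6.1.2 and mm10 per the submitters' notes. The deposited matrices of called barcodes held 9737, 6422 and 6899 barcodes (female library, male library 1, male library 2) and 63066640, 40609390 and 44661762 UMIs. They were used as deposited, without ambient correction or removal of doublets. Scrublet (scanpy 1.11.5) scores marked 646, 287 and 315 kept barcodes as possible doublets, of which 11, 1 and 2 were *Car6*-high, and all 11 of the female ones were *Bpifa2*-rich.

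Raw counts were summed per library and kind of cell and tested with edgeR 4.0.16 (filterByExpr, TMM, glmQLFit, glmQLFTest, R 4.3.3), with Benjamini-Hochberg adjustment over all genes tested. The library was a block, since both sums of a library came from 1 suspension, and the tests were checked on simulated counts. Genes of the rule and tear genes stayed in the fit and in the counts of all genes tested and called. No fold change or p-value is reported for any of them, and they were left out of the gene lists. The female and male pools were prepared on different days at different core facilities, and whether the male pools were prepared separately from each other is not stated. Named genes were the rule and marker genes, members of gene lists with most UMIs or named by the study, the 10 largest differences each way at an adjusted p under 0.05 with at least 30 UMIs and the same sign in 3 of 3 libraries, and the most abundant tear genes. Other list members and the genes of the *Bpifa2*-rich cells were chosen after their values were seen. The cells, lists and tests were chosen with earlier results of these data known. Alternatives were other scalings, DESeq2 1.42.0, no count filter, no block, other cell limits and left-out libraries. Some genes of the lists are not reported here.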

Additional observations from a re-analysis of the deposited data

Results flagged for a closer look

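In 5 genes the *Car6*-high cells of the female library moved one way from their comparison cells and those of both male libraries the other way, as TMM-scaled log2 differences within a library. With 1 female library, these differences between libraries were not tested. Against other tear-rich cells, *Lcn11* differed by 0.68 in the female library and by −2.21 and −1.90 in the male libraries. *Wfdc12* differed by 2.14, −2.87 and −3.04, and its female level was 2931 CPM in the *Bpifa2*-rich cells and 31.6 CPM in the others. *Aqp5* differed by −0.016, 0.30 and 0.53, and *Krt18* by −0.75, 0.58 and 0.34. Against duct-gene-high cells, *Slc12a2* differed by 0.67, −3.84 and −3.20, and its female level was 352 CPM in the *Bpifa2*-rich cells and 7.58 CPM in the others.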

How the results depend on the processing

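The counts of called genes depended on the scaling, the cells and the libraries. Against other tear-rich cells (293 higher, 633 lower), the counts were 3454 and 69 with total UMIs in place of TMM, 244 and 258 with UMIs off the tear genes, 196 and 178 with DESeq2, 197 and 416 with a mitochondrial share under 5%, 448 and 822 with *Car6* at 2500 CPM, 1 and 186 with the 8 *Car6*-high cells at 75% tear UMIs, and 96 and 87 in the same depth range. Leaving out 1 library gave 103 to 191 higher and 125 to 522 lower. Against duct-gene-high cells (358 higher, 445 lower), they were 51 and 3179 with total UMIs, 33 and 989 with UMIs off the tear genes, 111 and 139 with DESeq2 and 170 and 209 with a mitochondrial share under 5%, and 199 to 273 and 191 to 347 with 1 library left out. Without the replicate block, which pairs both sums of a library, the counts were 162 and 242 against other tear-rich cells and 267 and 280 against duct-gene-high cells. The depth range and the removal of *Bpifa2*-rich cells were chosen after seeing the data. The cause of these changes was not tested.

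*Car6*-high cells numbered 152 in place of 260 with a mitochondrial share under 5%. The share with a *Kit* UMI was 5.95, 5.47 and 3.43% after thinning, and in the female library 44.2% without *Bpifa2*-rich cells and 17.9% with *Car6* at 2500 CPM, both chosen after seeing the data. Against other tear-rich cells, signs turned with the 8 cells at 75% tear UMIs for *Dnase1* (−1.11), *Lrrc26* (−1.85), *Etv1* (−1.52), *Aqp5* (−1.83), *Bglap3* (−1.78), *Krt18* (−1.61), *Wfdc18* (−1.03), *Tcn2* (−0.74), *2310057J18Rik* (−1.99), *mt-Co3* (−1.27), *Epcam* (−1.60), *Malat1* (−0.77), *Folr1* (−9.50), *Atp1b1* (−7.01) and *Foxc1* (−10.18), the last 3 at fitted values that depend on the prior count. With these 8 cells the median gene stood at −7.26, and of the genes just named only *Bglap3* was called (adjusted p = 0.0434). Signs turned with total UMIs for *Lpo* (0.75), *Lcn11* (0.20), *Sval2* (0.19), *Bhlha15* (0.53), *Qsox1* (0.68), *Hspa5* (0.79), *Sec61b* (0.14), *Tfrc* (0.34) and *Ltf* (0.10). *Aqp5* (−0.0076) and *Krt18* (−0.10) turned with *Car6* at 2500 CPM, *Krt18* with no count filter (−0.12) and with 1 library left out (−0.18 to 0.48), *Hspa5* in the same depth range (0.059), and *Ltf* with equal exclusions (0.64) or a 50% tear limit (0.030). Against duct-gene-high cells, signs turned with total UMIs and with UMIs off the tear genes for *Kit* (−0.57 and −0.42), *Sox10* (−0.54 and −0.43), *Lrrc26* (−0.34 and −0.14) and *Aqp5* (−0.34 and −0.14), and with total UMIs for *Xbp1* (−0.038) and *Hspa5* (−0.15). Of the other results for single genes, 488 and 308 kept direction and call in the 2 comparisons, and 112 and 40 lost the call with the same sign. Of 36 and 24 genes, 4 and 9 kept both under every alternative run. With 72 to 97 *Car6*-high cells per library, genes with a few UMIs per library were measured with little precision.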
